A study of Mus musculus with 18 samples.

Results

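Titin and nebulin are encoded by some of the longest transcripts of skeletal muscle. They were followed here with M-band proteins and myosin-binding proteins through 9 genes, Ttn, Neb, Nrap, Myom1, Myom2, Myom3, Mybpc1, Mybpc2 and Mybph. Members were all non-control probes of the array that carry one of these gene symbols, which gave 16 of 55681 probe names. Ttn had 4 probes, Neb had 3, Nrap and Mybpc1 had 2 each, and the other 5 genes had 1. Myofibers, the multinucleated contractile cells of muscle, were freed with collagenase and lysed with detergent, and RNA of the pelleted nuclei and of the cytoplasm was hybridised to single-colour Agilent arrays. The fibers came from soleus, from the tibialis anterior (TA) and from the extensor digitorum longus (EDL) of wild-type CD1 female mice, 3 months old, with no treatment or altered allele in any group. Each of the 6 groups (EDL cytoplasm, EDL nuclei, soleus cytoplasm, soleus nuclei, TA cytoplasm and TA nuclei) had 3 arrays, each of 1 pool of 5 to 10 fibers, for 18 arrays in all. By the labels, EDL and soleus pools with the same number came from the same pair of mice, and TA cytoplasm 1 and TA cytoplasm 2 shared 1 mouse, which was also in the pools numbered 2 of EDL and soleus. TA cytoplasm 1 and TA nuclei 1 had 1 mouse in common, as had TA cytoplasm 2 and TA nuclei 2, and the mouse of TA nuclei 3 was also in the pools numbered 1 of EDL and soleus. P-values measure the spread between these pools, and the fit shared 1 estimate of it between the 6 groups. Whatever pelleted with the nuclei was counted as nuclear.

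The sarcomere, the contractile unit of muscle, is built around very long proteins. Titin reaches from the Z-disc to the M-band and acts as a molecular spring, nebulin runs along the thin filament, and the nebulin-related anchoring protein Nrap takes part in myofibril assembly and sits at the junction with the tendon. Myomesins cross-link thick filaments in the M-band, and the myosin-binding proteins C and H bind the thick filament in regular stripes of the A-band. Several of these proteins have forms typical of slow or fast fibers. Soleus is the slow muscle among the 3, while EDL and TA are mostly fast.

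The results differed between the probes of Ttn and of Neb, so the probes used along both genes are shown here, except the one closest to the 3' end of Ttn. Positions are those given by the array design on mm9. Both genes lie on the minus strand of chromosome 2, so the higher coordinate is closer to the 5' end. Whether a probe lies in an exon, an intron or a UTR was not analysed here. In order from 5' to 3', the Ttn probes are at chr2:76802542-76802601 (A_55_P2424042), chr2:76655847-76655906 (A_55_P2153031), chr2:76551742-76551801 (A_52_P454295) and chr2:76542077-76542136 (A_55_P2153021). The array design assigns the 5'-most of them to a different Ttn transcript than the other 3. The Neb probes are at chr2:52097549-52097608 (A_55_P2116973), chr2:52077302-52077360 (A_55_P2116968) and chr2:51992837-51992896 (A_55_P2116978), and the middle one was designed on a separate mRNA record. Sequences run 5' to 3' in the sense of the transcript.
Ttn A_55_P2424042: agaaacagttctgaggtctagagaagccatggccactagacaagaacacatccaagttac
Ttn A_55_P2153031: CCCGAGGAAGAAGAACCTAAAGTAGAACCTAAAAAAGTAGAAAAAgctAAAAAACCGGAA
Ttn A_52_P454295: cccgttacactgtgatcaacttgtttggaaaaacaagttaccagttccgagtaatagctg
Neb A_55_P2116973: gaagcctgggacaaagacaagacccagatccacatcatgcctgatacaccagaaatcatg
Neb A_55_P2116968: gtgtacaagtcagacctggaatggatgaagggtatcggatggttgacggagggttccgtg
Neb A_55_P2116978: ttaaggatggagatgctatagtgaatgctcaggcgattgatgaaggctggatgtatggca
Capitals in A_55_P2153031 mark triplets, read from its first base, that code for proline, glutamate, valine or lysine, the residues that give the elastic PEVK segment of titin its name. They make up 19 of its 20 triplets, and 13 of the 55681 probes of the array (0.0233%) hold as many in that reading. Adenine makes up 55% of its bases. No other probe of the array shared 30 bases with any of the 16.

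Levels are log2 of the quantile-normalised intensity. Quantile normalisation gives all arrays the same distribution of intensities, so a difference between fractions is relative to the other probes. The amount of a transcript in each compartment was not measured. Differences are on that log2 scale too, and are given as nuclei less cytoplasm or as one muscle less another in the order they are named, with the standard error (SE) of the fit. Between 78.9% and 89.3% of the spots of an array had a positive signal significantly above background. All 16 probes were well above background on each of the 18 arrays, and 0 were saturated. Slow fiber markers (Myh7, Tnni1, Tnnt1, Myl3, Atp2a2) were higher in soleus than in EDL in 5 of 5 genes, with a median difference of 4.13. Fast fiber markers (Myh4, Tnni2, Tnnt3, Mylpf, Atp2a1) were called lower in soleus in 2 of 5 genes, with a median difference of -0.42. RNAs known to stay in the nucleus were higher in the nuclear fraction in 4 of 4 cases, with a median difference of 2.75. Among markers of other cells, 5 of 5 endothelial genes (median difference 1.16), 4 of 4 Schwann cell genes (1.20) and 4 of 5 fibroblast genes (0.89) were also higher in nuclei, whereas 0 of 4 macrophage genes were higher and 3 were lower (-0.68). Of 5 satellite cell genes listed, 2 were tested over the 3 muscles, and 1 of them was higher in nuclei (median difference 0.77). The mean level of these 2, Cdh15 and Vcam1, was 5.39 to 9.43 on cytoplasmic and 6.18 to 9.49 on nuclear arrays. Pax7, another satellite cell gene, was well above background on 8 of the 18 arrays and Myf5 on 0. Of 4 smooth muscle genes, 1 was higher in nuclei and 2 were lower (0.22). The mean level of the 5 endothelial genes lay between 7.47 and 9.26 on cytoplasmic arrays and between 9.20 and 9.85 on nuclear arrays. The part of these other cells in the differences below was not tested. In EDL and soleus each fraction was on a slide of its own, so slide and fraction cannot be told apart there. For TA, 1 slide held both fractions, and values within it and within its scan day are given separately.

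Nearly all of these transcripts had a higher level in the nuclear fraction, relative to the other probes of the arrays. Over the 3 muscles, 15 of 16 probes, from 8 of 9 genes, rose in nuclei and 0 fell, while 31.3% of the 40541 probes tested across the array were called higher and 38.6% lower. The median difference of the 16 probes was 1.28, against -0.08 for all probes tested. The members were bright, with mean levels from 8.87 to 13.90. In level bins above 8, between 30.5% and 41.3% of all probes tested were called higher, and the median differences lay between -0.03 and 0.20. Mybph was the exception among the 9 genes. Other genes of myofibers were also higher in nuclei. That held for 6 of 6 myofiber markers (Acta1, Ckm, Mb, Tnnc2, Actn2, Ryr1), with a median difference of 0.58. It also held for 4 of 5 slow fiber markers (0.95) and 4 of 5 fast fiber markers (0.35), and 0 in these lists were called lower. Nuclei lay above cytoplasm with no overlap in each of the 3 muscles for 12 of 16 probes, against 14.5% of 35528 probes with a value on every array. The remaining 4 were Mybph, Mybpc2, the 5' probe of Mybpc1 and the 5' probe of Nrap. Within a muscle, nuclei were called higher for 12 probes in EDL (20.1% of all probes), for 13 in soleus (18.7%) and for 14 in TA (19.2%). None of the 16 was called lower in a muscle, against 26.6% of all probes in EDL, 21.7% in soleus and 33.5% in TA. The interaction of muscle and fraction was called for 0 of 16 probes by limma's F test (1.62% of all probes), the lowest adjusted p being 0.232, and 1 probe had an unadjusted p under 0.05. Without scaling between arrays the interaction was called for Myom2 and Myom3, 2 of 16 probes where 36.7% of all probes were called, and with another background correction for Myom3, where 3.41% were.

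**Figure D1:**
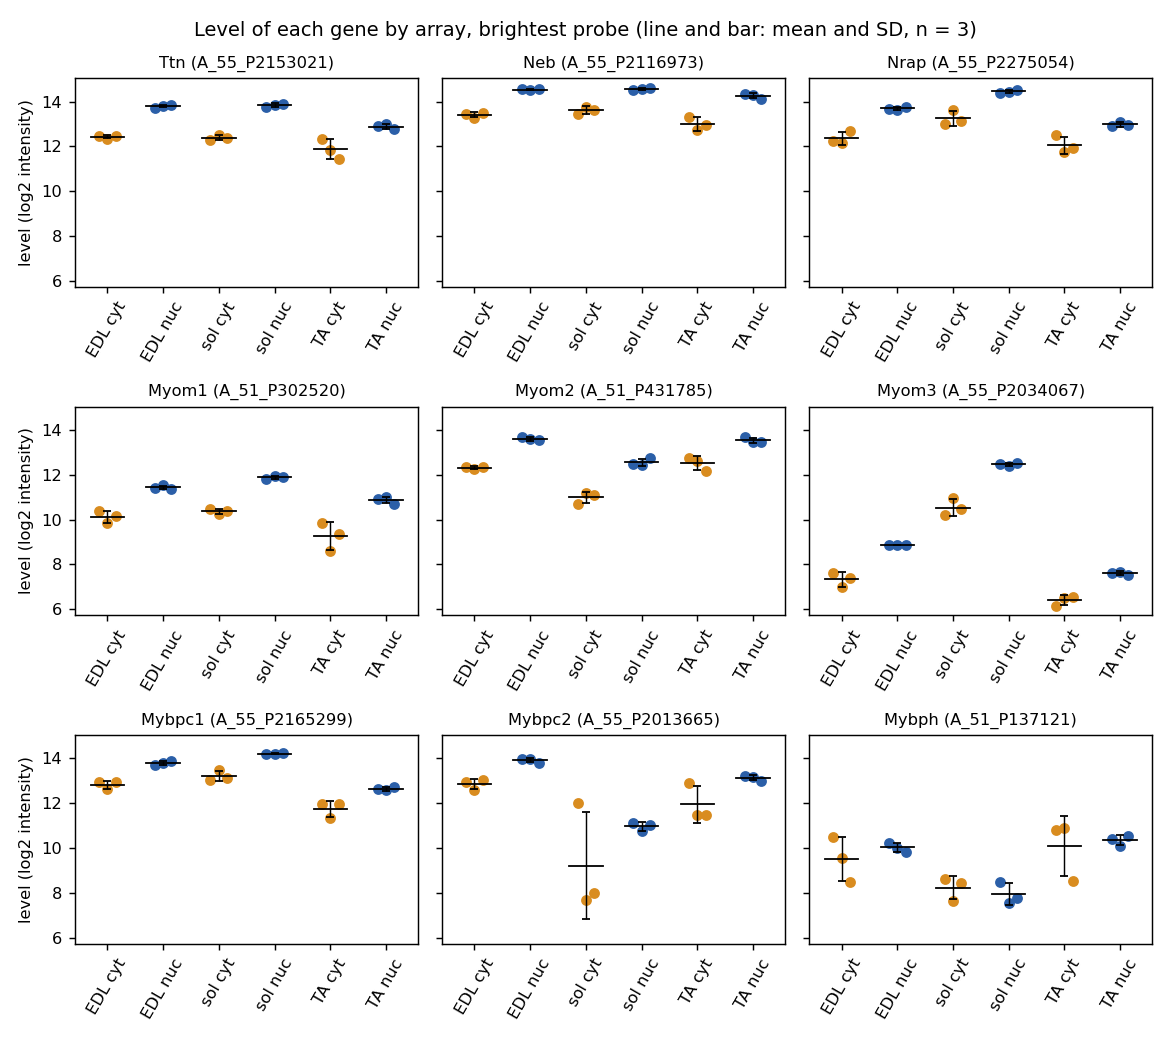
Level (log2 intensity) of the brightest probe of each of the 9 genes on all 18 arrays, with cytoplasm (cyt) in orange and nuclei (nuc) in blue, and with line and bar for mean and SD (n = 3). Nuclear points lie above cytoplasmic ones in each muscle except for Mybph and for Mybpc2 in soleus, where soleus cytoplasm 1 was at 11.996, and Myom3 stands out by its soleus levels of 10.18 to 12.52. Levels are comparable between groups within a panel, not between panels.

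Replicates were not equally tight in both fractions. As the fit shared 1 estimate of the spread for each probe, a p-value within 1 fraction does not measure the spread of that fraction alone. Over the 16 probes and 3 muscles, the SD of 3 nuclear arrays had a median of 0.09 and reached 0.49, and that of 3 cytoplasmic arrays had a median of 0.29 and reached 2.41. With the mean of the nuclear arrays taken as 1 sample per muscle, 12 of 16 probes were called over the 3 muscles (40% of all probes in either direction), 3 in EDL (7.33%), 3 in soleus (3.27%) and 4 in TA (10.2%).

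Titin gave the largest difference among the 16 probes, at its 5' end. The 5'-most probe, A_55_P2424042, read 8.17, 7.30 and 7.63 in EDL cytoplasm and 10.77, 10.83 and 10.64 in EDL nuclei. In soleus it read 9.51, 9.63 and 9.29 in cytoplasm and 12.06, 11.92 and 12.07 in nuclei. In TA it read 6.52, 6.38 and 7.14 in cytoplasm and 9.96, 9.96 and 9.99 in nuclei. Every nuclear array was thus above every cytoplasmic array of the same muscle, by more than 2 log2 units. The difference over the muscles was 2.96 ± 0.13 (SE, adjusted p = 1.48e-10 by limma), a 7.78-fold change and the 99.8th percentile of all probes tested. EDL gave 3.05, soleus 2.54 and TA 3.29.

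The other 3 titin probes showed smaller differences. The probe of the PEVK-coding type, A_55_P2153031, differed by 1.08 ± 0.12 (adjusted p = 1.38e-06), and its values were 1.08 in EDL, 0.64 in soleus and 1.53 in TA. Its call in soleus (adjusted p = 0.0253) was lost without soleus cytoplasm 1 (0.61, adjusted p = 0.0650). The probe at 250.8 kb from the 5'-most one, A_52_P454295, differed by 1.62 ± 0.12, and the 3'-most probe, A_55_P2153021, by 1.27 ± 0.11, both past the threshold in each muscle. The 3'-most probe is also the brightest of Ttn. It read 12.47, 12.34 and 12.48 in EDL cytoplasm against 13.73, 13.79 and 13.84 in EDL nuclei, and 12.27, 12.50 and 12.38 in soleus cytoplasm against 13.74, 13.85 and 13.91 in soleus nuclei. In TA it read 12.35, 11.84 and 11.45 in cytoplasm and 12.89, 12.98 and 12.77 in nuclei. Here too the fractions did not overlap, and TA nuclei were the lowest of the nuclei.

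Titin had no steady order along the gene, with 1.08, 1.62 and 1.27 from 5' to 3' after its 5'-most probe. In nebulin the difference grew from 5' to 3'. The 5'-most and brightest probe, A_55_P2116973, read 13.46, 13.29 and 13.50 in EDL cytoplasm and 14.56, 14.51 and 14.55 in EDL nuclei. The 3'-most probe, A_55_P2116978, read 11.46, 11.18 and 11.71 in EDL cytoplasm and 13.32, 13.37 and 13.29 in EDL nuclei. Both separated the fractions with no overlap, the 3' probe by the wider margin. The difference over the muscles was 1.11 ± 0.10 at the 5' probe (adjusted p = 1.35e-07), 1.53 ± 0.21 at the middle probe (1.02e-05) and 1.97 ± 0.14 at the 3' probe (1.96e-08). In soleus the 5' probe read 13.43, 13.77 and 13.64 in cytoplasm and 14.53, 14.58 and 14.61 in nuclei, and the 3' probe 11.60, 11.36 and 11.33 against 13.51, 13.47 and 13.62. In TA the 5' probe read 13.33, 12.72 and 12.97 in cytoplasm and 14.32, 14.31 and 14.13 in nuclei, and the 3' probe 11.14, 9.86 and 10.38 against 12.48, 12.45 and 12.25. The 3 muscles gave the same order of the end probes, with 5' differences of 1.12, 0.96 and 1.25 and 3' differences of 1.87, 2.10 and 1.93 in EDL, soleus and TA.

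**Figure D2:**
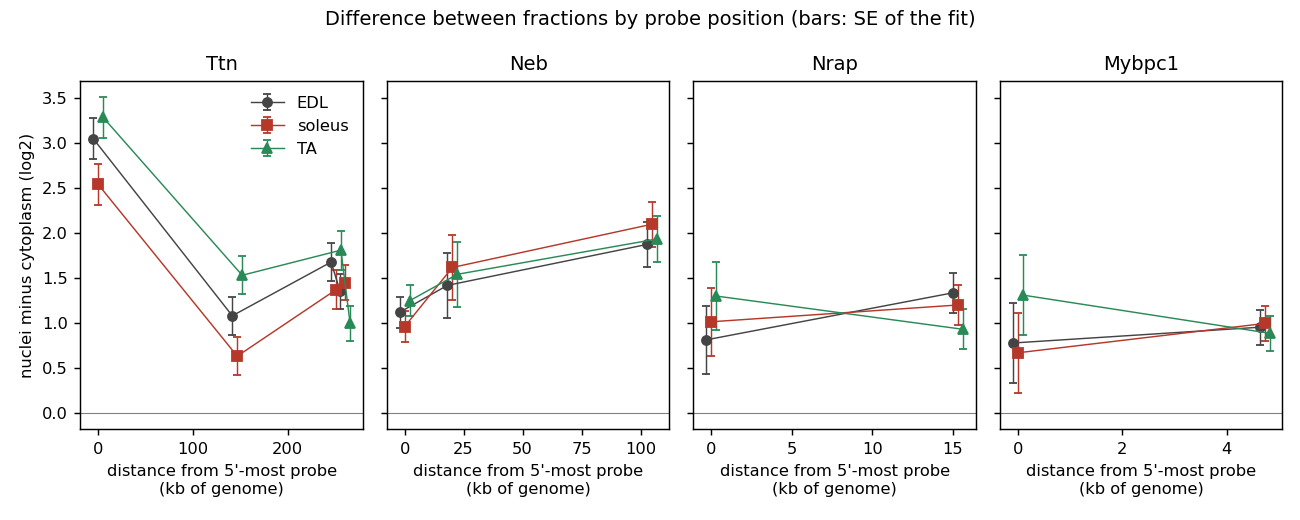
Nuclei minus cytoplasm (log2, bars: SE of the fit, n = 3 arrays a group) for each probe of the 4 genes with several probes, against its distance in kb of genome from the 5'-most probe, with points of the 3 muscles set slightly apart. Ttn starts at 2.54 to 3.29 and falls to between 0.64 and 1.81 at the other probes, Neb climbs from 0.96 to 1.25 at the 5' end to 1.87 to 2.10 at the 3' end, and Nrap and Mybpc1 show no common slope.

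Whether the difference between fractions was equal at both ends of a gene was tested on the level of the 5'-most probe minus that of the 3'-most probe within each array. The absolute size of that quantity has no meaning, since probes differ in brightness, and only its change between groups was read. For Ttn, it was -4.31, -5.04 and -4.85 in EDL cytoplasm and -2.96, -2.96 and -3.19 in EDL nuclei, and nuclei were above cytoplasm with no overlap in soleus and TA too. The nuclear change over the 3 muscles was 1.69, with 1.70 in EDL, 1.09 in soleus and 2.29 in TA. An exact permutation test of the fraction labels within muscles (2-sided, 8000 arrangements, 18 arrays) gave p = 0.00025, the smallest this design allows, and 0.0005 after Benjamini-Hochberg adjustment over the 4 genes. For Neb, the quantity was 2.00, 2.11 and 1.79 in EDL cytoplasm and 1.24, 1.14 and 1.26 in EDL nuclei, and nuclei were below cytoplasm with no overlap in soleus and TA too. The nuclear change was -0.86 over the muscles (-0.75 in EDL, -1.14 in soleus and -0.68 in TA), with the same exact permutation p of 0.00025, adjusted 0.0005. The end probes of Ttn and Neb thus changed in opposite directions in each of the 3 muscles. At the other Ttn probes the differences between fractions were 1.08, 1.62 and 1.27 from 5' to 3', so the direction in Ttn rests on its 5'-most probe.

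Nrap and Mybpc1 gave no such change. The value for Nrap was -0.11 (exact permutation p = 0.558, adjusted 0.744) over probes 15.3 kb apart, and that for Mybpc1 was -0.03 (p = 0.914, adjusted 0.914) over probes 4.73 kb apart. The muscles did not share a sign in either gene. Ttn probes lay 260 kb apart and Neb probes 105 kb. Among 2728 other genes with 2 eligible probes, the difference at the 5' probe minus that at the 3' probe had a median of -0.19 and quartiles of -0.81 and 0.48, so Ttn lay above the upper quartile and Neb just below the lower one. For the 196 of them with RefSeq mRNA probes at least 50 kb apart, the quartiles were -0.54 and 0.69. Position in Ttn cannot be told apart from the transcript its 5' probe was designed on. In both Ttn and Neb the dimmest probe gave the largest difference, so position cannot be told apart from probe brightness either. Mean levels from 5' to 3' were 9.43, 11.48, 12.10 and 12.87 in Ttn and 13.90, 12.55 and 12.10 in Neb.

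**Figure D3:**
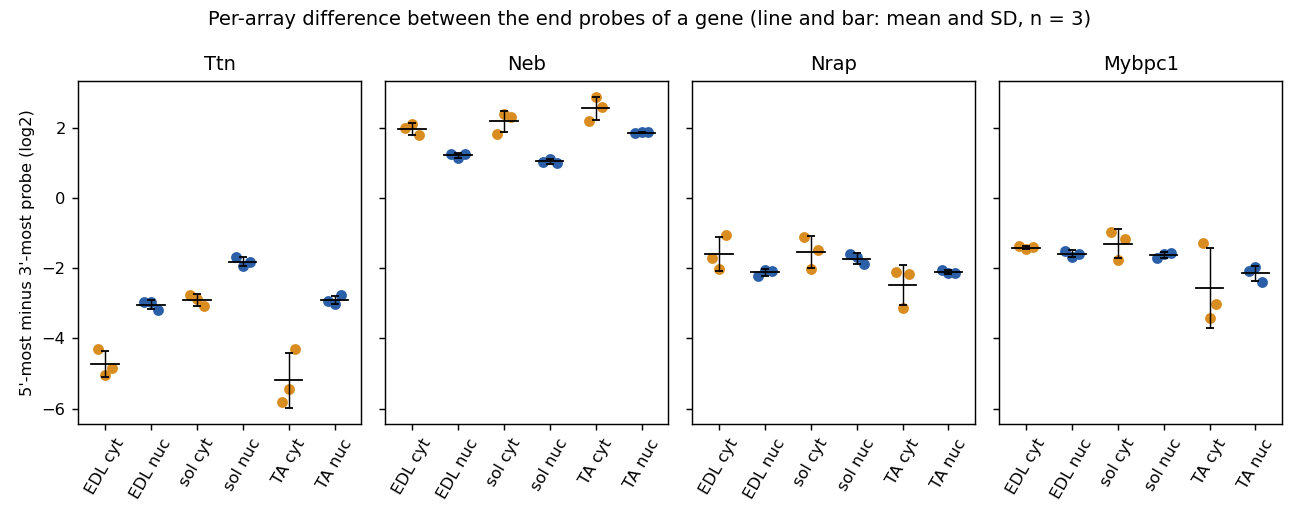
Level of the 5'-most probe minus that of the 3'-most probe (log2) on each of the 18 arrays for Ttn, Neb, Nrap and Mybpc1, with line and bar for mean and SD (n = 3). Nuclear arrays (blue) lie above cytoplasmic arrays (orange) of the same muscle for Ttn and below them for Neb, with no overlap, whereas the fractions do not separate the same way in all muscles for Nrap and Mybpc1.

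Nrap was higher in nuclei at both probes. The 3' probe, A_55_P2275054 (chr19:56394493-56394500, the 8 bases the design lists), is the brightest. It read 12.22, 12.16 and 12.68 in EDL cytoplasm and 13.66, 13.64 and 13.78 in EDL nuclei, and 12.999, 13.64 and 13.14 in soleus cytoplasm against 14.40, 14.45 and 14.53 in soleus nuclei. In TA it read 12.49, 11.75 and 11.91 in cytoplasm and 12.89, 13.10 and 12.96 in nuclei, and the fractions did not overlap in any muscle. The difference was 1.16 ± 0.13 over the muscles (adjusted p = 1.10e-06). The 5' probe, A_55_P2275057 (chr19:56409762-56409821, minus strand), differed by 1.05 ± 0.22 (adjusted p = 0.00053), and its 0.82 in EDL missed the threshold (adjusted p = 0.0878), as did its value in soleus without soleus cytoplasm 1 (1.10, adjusted p = 0.0643). EDL cytoplasm 3, at 11.62 on this probe, lay within the EDL nuclei range of 11.42 to 11.70.

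The 3 myomesins rose in nuclei in each muscle with no overlap. Myom1 (A_51_P302520, chr17:71475839-71475898, plus strand), the myomesin of all striated muscle, differed by 1.48 ± 0.14 (adjusted p = 2.89e-07). It read 10.38, 9.85 and 10.14 in EDL cytoplasm against 11.41, 11.53 and 11.39 in EDL nuclei, 10.46, 10.23 and 10.40 against 11.81, 11.96 and 11.90 in soleus, and 9.86, 8.62 and 9.38 against 10.92, 11.004 and 10.703 in TA. Myom2 (A_51_P431785, chr8:15133322-15133381, plus strand), which encodes the M-protein of fast fibers, differed by 1.29 ± 0.11 (6.48e-08), and Myom3 (A_55_P2034067, chr4:135371377-135371436, plus strand), the third myomesin, by 1.56 ± 0.12 (3.65e-08). Both had their highest value in soleus (1.56 and 1.93) and their lowest in TA (1.02 and 1.20), an order that the interaction test did not call (adjusted p = 0.470 and 0.367).

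The myosin-binding proteins were the least uniform group. Mybpc1, the slow form of myosin-binding protein C, differed by 0.95 ± 0.11 (adjusted p = 2.31e-06) at its brightest, 3' probe A_55_P2165299 (chr10:87981078-87981137, minus strand) and by 0.92 ± 0.26 (0.00493) at the 5' probe A_55_P2008443 (chr10:87985807-87985866). The 3' probe read 12.93, 12.62 and 12.93 in EDL cytoplasm against 13.70, 13.78 and 13.87 in EDL nuclei, 13.05, 13.50 and 13.11 against 14.19, 14.22 and 14.24 in soleus, and 11.98, 11.33 and 11.96 against 12.63, 12.57 and 12.74 in TA. It separated the fractions in all muscles. The 5' probe was called in TA only (1.31, adjusted p = 0.0219), where TA cytoplasm 1 at 10.701 exceeded all 3 TA nuclei arrays (10.35 to 10.60). In a fit of the TA arrays without it the value was 2.07 ± 0.32 (adjusted p = 0.00406). In the full fit the values of the 5' probe in EDL (0.78) and soleus (0.67) missed the threshold (adjusted p = 0.164 and 0.244).

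Mybpc2, the fast form (A_55_P2013665, chr7:51759105-51759164, minus strand), differed by 1.33 ± 0.44 (adjusted p = 0.0145) over the muscles and was called in no single muscle. It read 12.96, 12.59 and 13.03 in EDL cytoplasm and 13.99, 13.98 and 13.81 in EDL nuclei, and 12.92, 11.47 and 11.48 in TA cytoplasm and 13.22, 13.19 and 13.01 in TA nuclei. In soleus it read 11.996, 7.67 and 8.00 in cytoplasm and 11.12, 10.75 and 11.02 in nuclei. Soleus cytoplasm 1 thus stood far above the other soleus cytoplasm arrays and above the nuclei. The 6 groups shared 1 estimate of the spread, so the SD of 2.41 in soleus cytoplasm entered the SE of 0.77 in every muscle. In EDL (1.07) and TA (1.18) the differences missed the threshold (adjusted p = 0.270 and 0.209 by limma), although the fractions did not overlap. The fast myosin gene Myh4 moved with Mybpc2, at 11.59, 7.29 and 7.36 in soleus cytoplasm 1 to 3 and 10.44 to 10.61 in soleus nuclei. Of the other fast fiber markers, Mylpf read 9.40, 8.11 and 8.45 on these cytoplasmic arrays. Tnni2 (15.03, 15.06 and 15.08), Tnnt3 (14.92, 14.89 and 14.90) and Atp2a1 (14.18, 14.18 and 14.02) showed no such step. Without soleus cytoplasm 1 the difference between fractions of Mybpc2 was 1.79 ± 0.19 over the muscles (adjusted p = 1.13e-06) and 3.13 ± 0.34 in soleus (2.23e-05). With slide as a random block it was 1.70 over the muscles and missed the threshold (adjusted p = 0.148).

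Mybph (A_51_P137121, chr1:136096999-136097558, plus strand), which encodes myosin-binding protein H, did not pass the test, with 0.16 ± 0.32 over the muscles (95% interval -0.52 to 0.85, adjusted p = 0.665). It read 10.50, 9.55 and 8.50 in EDL cytoplasm and 10.24, 10.01 and 9.84 in EDL nuclei, 8.62, 7.65 and 8.43 against 8.49, 7.54 and 7.79 in soleus, and 10.79, 10.91 and 8.53 against 10.42, 10.10 and 10.52 in TA. The fractions overlapped in every muscle, and the cytoplasmic arrays of EDL and TA spread over about 2 log2 units. Without scaling between arrays the value was 0.97 (adjusted p = 0.0144), a setting in which the median of all probes moved to 0.42.

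In TA, the 3 nuclei arrays shared a slide with TA cytoplasm 2 and a scan day with TA cytoplasm 3. A fit of these 5 TA arrays alone, without TA cytoplasm 1, called 15 of 16 probes higher in nuclei, where 50.9% of all probes were called in either direction. The fit of all muscles without that array called 14. The 5'-most Ttn probe differed by 3.21 ± 0.26 (adjusted p = 0.00105) and the 3'-most Neb probe by 2.28 ± 0.22 (0.00141), so the differences in TA were as large within the shared scan day. Mybpc2 passed the test there with 1.66 ± 0.18 (0.00158), and Mybph did not (0.63, adjusted p = 0.449). On the slide shared with TA cytoplasm 2, the mean of the nuclei lay above that 1 array for 15 of 16 probes, by 3.59 at the 5'-most Ttn probe and 2.54 at the 3'-most Neb probe, and at -0.56 for Mybph.

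Soleus and EDL shared slides within each fraction. Over both fractions, 7 of 16 probes from 6 genes were called, 4 higher and 3 lower in soleus, against 3.87% of 41888 probes tested (2.3% higher and 1.57% lower). The higher ones were Myom3, the 5'-most Ttn probe and both Nrap probes, and the lower ones Myom2, Mybpc2 and Mybph, while the slow form Mybpc1 did not pass the test. Within a fraction, 3 probes were called in nuclei (1.58% of all probes) and 4 in cytoplasm (1.44%). Fewer fibers of a type in a pool and less RNA per fiber cannot be told apart in these bulk samples.

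**Figure D4:**
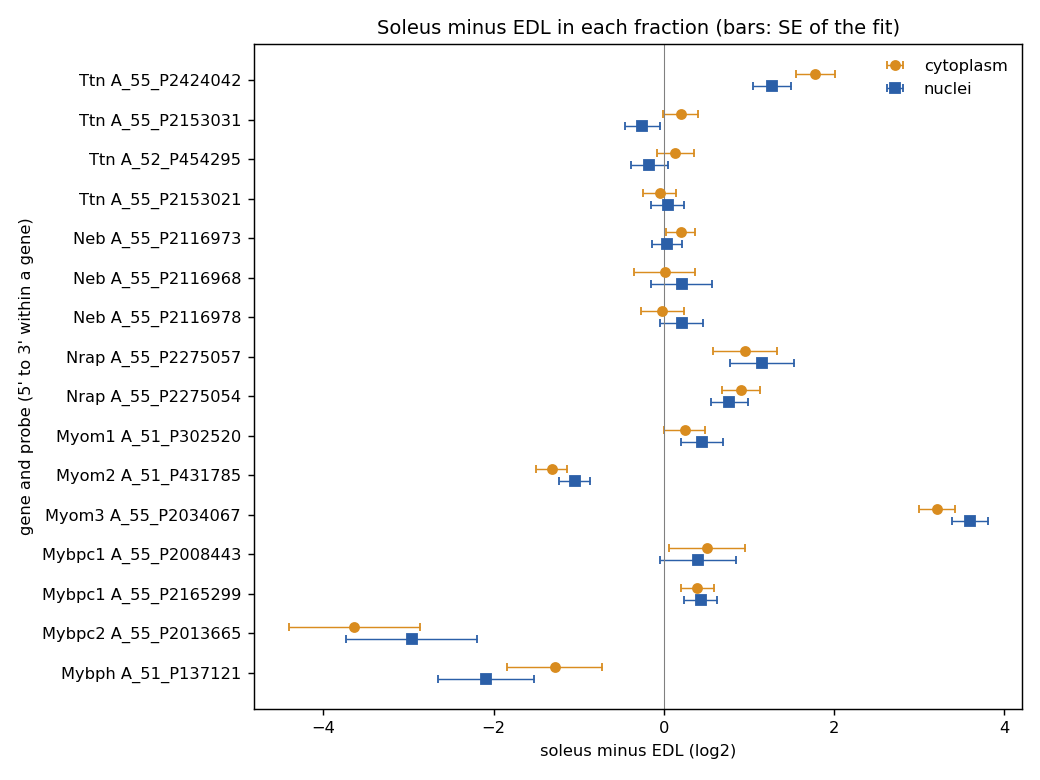
Soleus minus EDL (log2, bars: SE of the fit, n = 3 arrays a group) in cytoplasm (orange) and nuclei (blue) for the 16 probes. Myom3 lies at 3.21 and 3.59, the 5'-most Ttn probe at 1.78 and 1.27 with the other Ttn probes near 0, and Myom2, Mybpc2 and Mybph lie below 0 in both fractions.

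Myom3 gave the largest difference over both fractions and in nuclei, whereas Mybpc2 gave the largest in cytoplasm (-3.64 against 3.21) and, without soleus cytoplasm 1, over both fractions (-3.99 against 3.49). It read 7.63, 6.98 and 7.38 in EDL cytoplasm and 10.18, 10.97 and 10.46 in soleus cytoplasm, and 8.88, 8.87 and 8.88 in EDL nuclei and 12.47, 12.41 and 12.52 in soleus nuclei. In TA it read 6.16, 6.52 and 6.54 in cytoplasm and 7.63, 7.67 and 7.52 in nuclei. Both soleus groups were above every EDL and TA array, while the TA nuclei fell within the range of EDL cytoplasm or just above it. Soleus exceeded EDL by 3.402 ± 0.15 (adjusted p = 4.46e-09), a 10.6-fold change, and the call held in each fraction and under all 27 alternatives.

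Titin differed between soleus and EDL at its 5' end and not along the rest. The 5'-most probe was higher in soleus by 1.52 ± 0.16 (adjusted p = 3.05e-05), with 1.27 in nuclei and 1.78 in cytoplasm, and every soleus array exceeded every EDL array of the same fraction. The other 3 probes differed by -0.03, -0.02 and 0.00 from 5' to 3', with 95% intervals that all lay between -0.34 and 0.31. A test of the end probes added after these values were seen gave a soleus minus EDL change of 1.53 for Ttn (exact permutation within fractions, 2-sided, 400 arrangements, p = 0.005, the smallest possible, adjusted 0.02 over 4 genes). Since the values prompted this test, its p-value for Ttn is no independent support. The same change was 0.02 for Neb, 0.22 for Nrap and 0.04 for Mybpc1, with exact permutation p of 0.84, 0.28 and 0.745. Neb itself differed by 0.10 to 0.12 at its 3 probes, with 95% intervals between -0.44 and 0.65.

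The fast forms were lower in soleus. Myom2 read 12.36, 12.24 and 12.36 in EDL cytoplasm and 10.72, 11.21 and 11.08 in soleus cytoplasm, and 13.69, 13.60 and 13.53 in EDL nuclei and 12.49, 12.44 and 12.74 in soleus nuclei. The groups did not overlap in either fraction. Soleus lay above EDL on all arrays of both fractions for 5 of 16 probes (4.05% of all probes) and EDL above soleus for 2, Myom2 and Mybpc2 (2.97%). For Myom2 the difference was -1.18 ± 0.13 (adjusted p = 4.90e-05). Mybpc2 differed by -3.30 ± 0.54 (adjusted p = 0.00209), and by -3.99 ± 0.23 (1.40e-07) without soleus cytoplasm 1. In nuclei alone its difference of -2.96 missed the threshold (adjusted p = 0.0760 by limma), with the spread shared by all 6 groups. Mybph differed by -1.69 ± 0.40 (adjusted p = 0.0245), a call lost on leaving out any 1 of 7 arrays (EDL cytoplasm 1 or 2, EDL nuclei 1 or 2, soleus cytoplasm 2, or soleus nuclei 2 or 3), with an adjusted p of up to 0.0709.

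Among the remaining members, Nrap was higher in soleus at its 3' probe by 0.84 ± 0.16 (adjusted p = 0.00534) and at its 5' probe by 1.06 ± 0.27 (0.0370). The 5' call was lost on leaving out any 1 of 14 arrays, that is, any EDL or soleus array but EDL cytoplasm 3, or any TA nuclei array, with an adjusted p of up to 0.0961. The slow form Mybpc1 differed by 0.41 ± 0.14 at its 3' probe and 0.45 ± 0.32 at its 5' probe and did not pass the test (adjusted p = 0.127 and 0.552), although every soleus array lay above every EDL array of its fraction at both probes. Myom1 differed by 0.35 ± 0.17 (adjusted p = 0.371).

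TA differed from both other muscles in most members, and its arrays were largely on other slides. Against EDL, 13 of 16 probes were lower in TA and 0 higher, where 16.7% of all probes were called lower and 13.6% higher. They ran from -0.35 at the 5'-most Neb probe to -1.96 ± 0.32 (adjusted p = 0.000546) at the 5' probe of Mybpc1. Myom2 (0.07), Mybph (0.44) and Mybpc2 (-0.85) missed the threshold. With slide as a random block, 2 of 16 were past the threshold (1.83% of all probes), Myom3 at -1.18 ± 0.23 (adjusted p = 0.0172) and the 3' probe of Mybpc1 at -0.95 ± 0.19 (0.0226). On the slide that TA cytoplasm 1 shared with EDL cytoplasm, that 1 array lay 1.17 below the EDL mean for Myom3 and 1.18 below it for the 5'-most Ttn probe. Of the 13 probes called lower in TA, 11 lay below the EDL mean on that array, some of them little, such as the 5'-most Neb probe (-0.09) and the 3'-most Ttn probe (-0.08), and 2 lay above it, the middle Neb probe and the 3' Nrap probe (0.13 each). Markers of other cells moved too. Of 5 satellite cell genes listed, 2 had a value on every array, Cdh15 and Vcam1. Their mean level was 9.37 to 9.49 in TA nuclei against 6.18 to 6.45 in EDL nuclei. It was 5.98 to 9.43 in TA cytoplasm against 5.39 to 6.06 in EDL cytoplasm, where the muscles overlapped. That of the 4 smooth muscle genes was 10.08 to 10.35 in TA nuclei against 9.14 to 9.19 in EDL nuclei, and 8.98 to 10.15 against 9.01 to 9.32 in cytoplasm. That of the 5 fibroblast genes was lower, at 10.18 to 10.28 in TA nuclei against 10.998 to 11.09 in EDL nuclei. In cytoplasm it was 8.59 to 9.42 in TA against 10.10 to 10.36 in EDL. That of the 5 endothelial genes was 9.71 to 9.85 in TA nuclei against 9.25 to 9.43 in EDL nuclei. In cytoplasm it was lower in TA, at 7.47 to 8.27 against 8.52 to 8.55. That of the 4 Schwann cell genes was 7.12 to 7.35 in TA nuclei against 8.45 to 8.47 in EDL nuclei. In cytoplasm it was 5.66 to 6.06 against 6.87 to 7.10. That of the 4 macrophage genes was 7.78 to 7.97 in TA nuclei against 7.47 to 7.74 in EDL nuclei. The part of these cells in the differences of TA was not tested. The mean level of the 6 myofiber markers was also lower, at 12.89 to 13.07 in TA nuclei against 13.45 to 13.52 in EDL nuclei. In cytoplasm it was 11.84 to 12.45 in TA against 12.50 to 12.89 in EDL. Whether the members were lower by more than these markers was not tested.

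Against soleus, all 16 probes differed, 3 higher and 13 lower in TA, where 19% of all probes were called in each direction. Myom3 differed by -4.50 ± 0.15 (adjusted p = 3.35e-11), and the 5'-most Ttn probe by -2.42 ± 0.16 (8.90e-08). Mybpc2 (2.45), Mybph (2.12) and Myom2 (1.25) were higher in TA, as they were in EDL against soleus. With slide as a random block 8 of 16 were past the threshold (8.66% of all probes), among them Myom3 (-4.58 ± 0.23), the 5'-most Ttn probe (-2.39 ± 0.23) and Myom2 (1.29 ± 0.19), while Mybpc2 did not (2.79, adjusted p = 0.0540).

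Genes that work beside these proteins were less uniform. Of 22 partners of titin, nebulin and the M-band, 20 had a probe and 19 were tested over the 3 muscles, of which 12 were higher in nuclei and 3 lower, with a median difference of 0.49. The highest were Obsl1, an obscurin-like linker of titin and myomesin at the M-band (1.58 ± 0.15, adjusted p = 2.72e-07), and Capn3, a protease that binds titin (1.30 ± 0.11, 1.12e-07). The lowest were Mybpc3, the cardiac form of myosin-binding protein C (-1.41 ± 0.10, 2.27e-08), and Trim55, a ring-finger protein that binds titin near the M-band (-1.06 ± 0.14, 5.89e-06). Between soleus and EDL, 4 of 20 were higher and 2 lower. Those were led by Lmod2, an actin filament nucleator (2.41 ± 0.35, adjusted p = 0.000744), and Fhl1, a LIM-domain protein that binds titin (2.01 ± 0.24, 0.000116), on the soleus side. On the EDL side stood Tmod1, which caps thin filaments (-0.87 ± 0.17, 0.00893), and Ckm, the muscle creatine kinase of the M-band (-0.85 ± 0.13, 0.00135).

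Across the 18 arrays, the brightest probes of Ttn, Neb and Myom1 had the same profile to a large extent, with Pearson's r between 0.94 and 0.96 for each pair, while Myom3 and Mybph ran in opposite directions (r = -0.74). The points share the step between fractions and the 3 muscles, so r describes these arrays only. Among 18811 probes well above background on every array, those most like Ttn were Camk2b (r = 0.99), Vwf (0.99) and Pde4dip (0.98). Those most like Neb were Klhl28 (0.99), Exoc6b (0.98) and Tsc1 (0.98), and those most like Myom1 were Bat1a, Trak2 and Slc25a3 (0.98 each).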

How the data were processed

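RNA of nuclear and cytoplasmic fractions of myofibers was labelled with a kit that primes on the poly(A) tail and hybridised to single-colour arrays (18 samples, 6 groups of 3, grouped by the labels). The authors deposited scanner files whose intensity per spot was corrected for background within the array by Agilent Feature Extraction 10.7.3.1, with no scaling between arrays. From these files, spots not positive and significant were set to missing and intensities were quantile-normalised on the log2 scale, after the study's methods. Spots marked as outliers were also set to missing (16.1% of values missing in all), 3671 control spots were left out and spots of a probe were averaged. Group means were fitted with limma 3.58.1 (lmFit, eBayes, 2-sided, 12 residual degrees of freedom) in R 4.3.3 in place of Significance Analysis of Microarrays. P-values were adjusted by Benjamini-Hochberg over all probes with a value on at least 2 of 3 arrays per group, with a threshold of 0.05. The number of arrays limits the precision. The ends of a gene were compared by exact permutation with Python 3.11.15, numpy 2.4.6 and pandas 2.3.3, and figures were drawn with matplotlib 3.10.9.

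The members and lists were chosen with earlier results of these data known. All members were named, with values by array for the brightest probe and for the 5'-most and 3'-most probes where the results turned on them, along with the 2 partners with the largest change in each direction and the 3 probes most like Ttn, Neb and Myom1. Probe positions were taken from the array design (mm9). The authors also deposited a matrix of normalised values that holds none of the 16 probes and was not used. By the labels, EDL and soleus numbers mark the same mice. Deviations of same-mouse arrays from their group means correlated at -0.11 to 0.10 over 35528 probes (18 pairs) and those of other mice at -0.13 to 0.19 (36 pairs). On simulated data with 200 probes changed by 2 (log2), the fit over the 3 muscles recovered 98%, those within a muscle 87.5% to 90.5%, that of soleus against EDL 98% and the interaction 60%. Of the calls, 7.55% were false over the 3 muscles, 4.89% to 8.16% within a muscle, 5.31% for soleus against EDL and 10.4% for the interaction. These values hold for a change of 2 only. Alternatives covered scaling, background correction, filters, slide, replicate block and leaving out each array.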

Additional observations from a re-analysis of the deposited data

How the results depend on the processing

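The calls over the 3 muscles changed least. Leaving out 1 array gave 15 of 16 probes each time over the 3 muscles, 12 to 14 in EDL, 11 to 14 in soleus, 12 to 15 in TA, 5 to 7 for soleus against EDL over both fractions, 3 to 4 in nuclei and 3 to 5 in cytoplasm, 11 to 14 for TA against EDL, 16 for TA against soleus, and 0 to 1 for the interaction (Mybpc2 without soleus cytoplasm 1 and the 5' probe of Mybpc1 without TA cytoplasm 1). Of all probes, these fits called 26646 to 28931 over the 3 muscles, 16588 to 23090 in EDL and 12920 to 20395 in soleus. In TA they called 19547 to 24439. For soleus against EDL they called 1020 to 2661 over both fractions, 344 to 1164 in nuclei and 314 to 1255 in cytoplasm. For TA they called 9506 to 15182 against EDL and 12460 to 17123 against soleus, and for the interaction 108 to 1818. The replicate block gave 15 of 16 over the muscles (69.2% of all probes) and 12 for TA against EDL (28.5%). It changed no other count, and gave an exact permutation p, adjusted, of 0.00781 for both Ttn and Neb. With nuclear arrays averaged into 1 sample per muscle, 3 probes were called in EDL, 3 in soleus, 4 in TA, 1 for soleus against EDL, 0 for TA against EDL (23 of all probes) and 3 for TA against soleus, an alternative with fewer samples. Slide as a random block gave 2 for TA against EDL (1.83% of all probes) and 8 for TA against soleus (8.66%). The interaction was called for 2 probes without scaling (36.7% of all probes) and for 1 with normexp background correction (3.41%), and the cause was not tested. In soleus, nuclei were called higher for 9 probes with 75th percentile scaling, where 47.2% of all probes were called in either direction. With no scaling they were called higher for 15 (62.3%), against 13 (40.5%) in the main fit.

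The change between the ends of Ttn ranged from 1.59 to 1.84 and that of Neb from -0.92 to -0.81 on leaving out 1 array. Those of Nrap ranged from -0.22 to -0.02 and of Mybpc1 from -0.17 to 0.19, and they turned to 0.11 and 0.21 with 75th percentile scaling and with no scaling, never past the threshold. Other values near 0 also turned sign without being called. Mybph, nuclei minus cytoplasm, ranged from -0.10 to 0.33 on leaving out 1 array. Soleus minus EDL of Ttn A_52_P454295 was 0.0184 without scaling and -0.10 to 0.0675 on leaving out 1 array. That of Ttn A_55_P2153021 was 0.00438 with normexp and -0.0305 to 0.0258. That of Ttn A_55_P2153031 was 0.0111 with 75th percentile scaling, 0.0332 without scaling and -0.0848 to 0.0464. Neither the deposited matrix, which holds no member, nor a match of probes to the protein sequence was run as an alternative.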
